A study of Mus musculus with 8 samples.

Results

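The enzymes that break down glucose to pyruvate and lactate, the pyruvate dehydrogenase complex, the enzymes of the TCA cycle and the NADH shuttles were followed in the soleus (SOL) of mice that lack IRF4 in muscle fibers. The 41 genes were chosen by name from the 24054 genes of the expression table, and each of them has a row. They are given here in 6 roles, with 9 genes of upper glycolysis, 7 of lower glycolysis, 4 of lactate and its transport, 5 of the pyruvate dehydrogenase complex, 10 of the TCA cycle and 6 of the NADH shuttles. SOL RNA came from 4 flox mice, which carry floxed Irf4 alleles and serve as controls, and from 4 MI4KO mice, in which Cre driven from Myl1 removes Irf4 in skeletal muscle fibers. All 8 mice were male C57BL/6 animals on a high fat diet by their labels, while the text of the study does not name the diet or the age of the sequenced animals. MI4KO mice were bred from parents carrying Irf4 flox/+, with and without Cre. Myl1-Cre is selective for skeletal muscle, so cells of vessels, nerve and connective tissue in the sample are not targeted by design. Within each group, mice 1 to 4 follow the label numbers from low to high, which fall into a lower range (flox mouse 1 and MI4KO mice 1 and 2) and a higher range (the other 5 mice).

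Glycolysis turns glucose into pyruvate in the cytosol. Hexokinase traps glucose, phosphofructokinase commits it to breakdown, and pyruvate kinase closes the path. Pyruvate is then either reduced to lactate by lactate dehydrogenase, which also regenerates NAD+, or carried into mitochondria, where the pyruvate dehydrogenase complex converts it to acetyl-CoA for the TCA cycle. The malate-aspartate and glycerol phosphate shuttles bring the electrons of cytosolic NADH to mitochondria. SOL is a slow, oxidative muscle rich in mitochondria, and many steps are carried out by muscle isoforms beside isoforms found in most cells. IRF4 is a transcription factor of the interferon regulatory factor family, known best from lymphocytes and also active in metabolic tissues.

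The series as a whole bears on these genes in a few ways. Each mouse had between 13417512 and 16384565 reads on genes, and all values are TMM-normalized CPM, that is read counts relative to library size after scaling by the trimmed mean of M-values. Irf4 was at 0.686, 1.46, 1.58 and 1.68 in flox mice 1 to 4 and at 0.725, 0.840, 0.266 and 1.03 in MI4KO mice, from 4 to 23 reads a mouse, so the check of the deletion rests on few reads and the groups overlapped. The log2 fold change of Irf4 was -0.45 (SE 0.20, unadjusted p = 0.040, adjusted p = 1.0 by limma). The 8 values of Irf4 gave p = 0.114 in an exact permutation test (two-sided). Slow fiber markers summed to 32602 to 42829 in the 8 mice, with Myh7, the slow myosin heavy chain, between 11079 and 14577. Flox mouse 1 was highest for 14 of 14 liver markers, which summed to 176.8 there and to 1.45 to 3.26 in the other mice. MI4KO mouse 3 was highest for 12 of 12 genes that respond to glucocorticoids, which summed to 3807 there and to 2024 to 2313 elsewhere. Fast fiber markers summed to 53368 to 58461 in flox mice and to 47104 to 62696 in MI4KO mice. Among them Myh4, the myosin of the fastest fibers, varied far more than the sum, from 34.5 to 2496 in flox mice and from 55.8 to 2174 in MI4KO mice.

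Upstream sequences of 5 members are shown because they hold, or lack, letters that matter for these pathways. RefSeq promoter windows on GRCm38.p6 were matched by symbol for 39 of the 41 genes, all but Gpd1 and Idh3a, and only the 250 bases before the start of transcription were searched, on both strands. The core of the hypoxia response element, ACGTG, was found upstream of 11 of the 39 members. Of the 16525 genes with a window, 17.9% hold it. The windows of the members had a median GC content of 59.2%, against 56% for all windows, and the shares were not adjusted for this. The repeat that interferon regulatory factors bind, searched as 2 copies of GAAA spaced by any 2 bases, was found upstream of Suclg2 alone among the members, and 3.07% of all windows hold it. The short binding site of estrogen-related receptors, AAGGTCA, was upstream of Eno1 and Got1, against 3.46% of all windows. TATAAA was upstream of Got2 alone, against 12% of all windows. None of these 4 motifs overlaps another in the windows shown, where capitals mark them, and a match describes the letters only. Hk2 (chr6:82774455-82774704, minus strand) holds the hypoxia core at 226 and 52 bases before its start. Slc16a3 (chr11:120948817-120949066, plus strand) holds it at 27 and 14 bases before the start. Pdhx (chr2:103073514-103073763, minus strand) is the member whose groups did not overlap. It holds none of the 4 marked motifs, and it holds GC boxes at 183 and 29 bases. Suclg2 (chr6:95718847-95719096, minus strand) holds the IRF-type repeat on its reverse strand at 126 bases. Got1 (chr19:43524606-43524855, minus strand) holds the receptor site at 245 bases.
Hk2: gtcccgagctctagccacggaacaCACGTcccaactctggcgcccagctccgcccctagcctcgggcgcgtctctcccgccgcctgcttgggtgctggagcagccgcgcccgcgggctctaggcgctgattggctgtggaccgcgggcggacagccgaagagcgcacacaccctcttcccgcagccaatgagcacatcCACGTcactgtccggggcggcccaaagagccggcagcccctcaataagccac
Slc16a3: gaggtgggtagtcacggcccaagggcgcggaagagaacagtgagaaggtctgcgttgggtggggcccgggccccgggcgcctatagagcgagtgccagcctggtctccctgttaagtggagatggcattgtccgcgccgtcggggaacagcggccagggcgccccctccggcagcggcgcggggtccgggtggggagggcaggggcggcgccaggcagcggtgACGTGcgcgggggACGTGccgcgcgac
Pdhx: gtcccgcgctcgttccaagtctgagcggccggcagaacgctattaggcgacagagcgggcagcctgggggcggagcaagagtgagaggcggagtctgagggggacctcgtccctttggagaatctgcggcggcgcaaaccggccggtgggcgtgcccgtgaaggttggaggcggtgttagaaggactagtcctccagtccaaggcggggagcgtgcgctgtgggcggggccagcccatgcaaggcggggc
Suclg2: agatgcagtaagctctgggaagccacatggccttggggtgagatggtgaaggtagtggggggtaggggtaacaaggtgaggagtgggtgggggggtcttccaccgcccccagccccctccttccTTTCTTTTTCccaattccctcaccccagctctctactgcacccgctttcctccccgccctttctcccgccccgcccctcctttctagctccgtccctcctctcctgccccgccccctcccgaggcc
Got1: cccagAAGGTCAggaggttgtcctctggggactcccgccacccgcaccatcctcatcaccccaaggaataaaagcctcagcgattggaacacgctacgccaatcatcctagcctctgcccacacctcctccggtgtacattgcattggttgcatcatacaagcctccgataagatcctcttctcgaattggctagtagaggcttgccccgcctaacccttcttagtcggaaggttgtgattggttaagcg

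Levels were compared between genes per kilobase of the principal transcript in GENCODE M21. On this scale Gapdh, the glyceraldehyde phosphate dehydrogenase, ranked first of the 41 genes at a mean of 4064 over the 8 mice, and Aldoa, the muscle aldolase, followed at 3982. Their ranges of 3722 to 4841 and 3295 to 5152 overlapped, and with the union of all annotated exons as the length Aldoa ranked first. Eno3, the muscle enolase, stood at 1406 per kilobase and Pgam2, the muscle phosphoglycerate mutase, at 1187. Ldhb at 1073, mitochondrial malate dehydrogenase Mdh2 at 1071, pyruvate kinase Pkm at 749.2, cytosolic malate dehydrogenase Mdh1 at 738.5 and muscle phosphofructokinase Pfkm at 724.9 came next, and the last 3 of these did not differ beyond their ranges. At the other end, hexokinase Hk1 was at 3.94, mitochondrial glycerol phosphate dehydrogenase Gpd2 at 2.90, platelet-type phosphofructokinase Pfkp at 1.25 and the brain aldolase Aldoc at 0.061 per kilobase. Together the 41 genes took 3.66% to 4.10% of the reads on genes of a mouse, and MI4KO mouse 3 had the highest share.

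**Figure D1:**
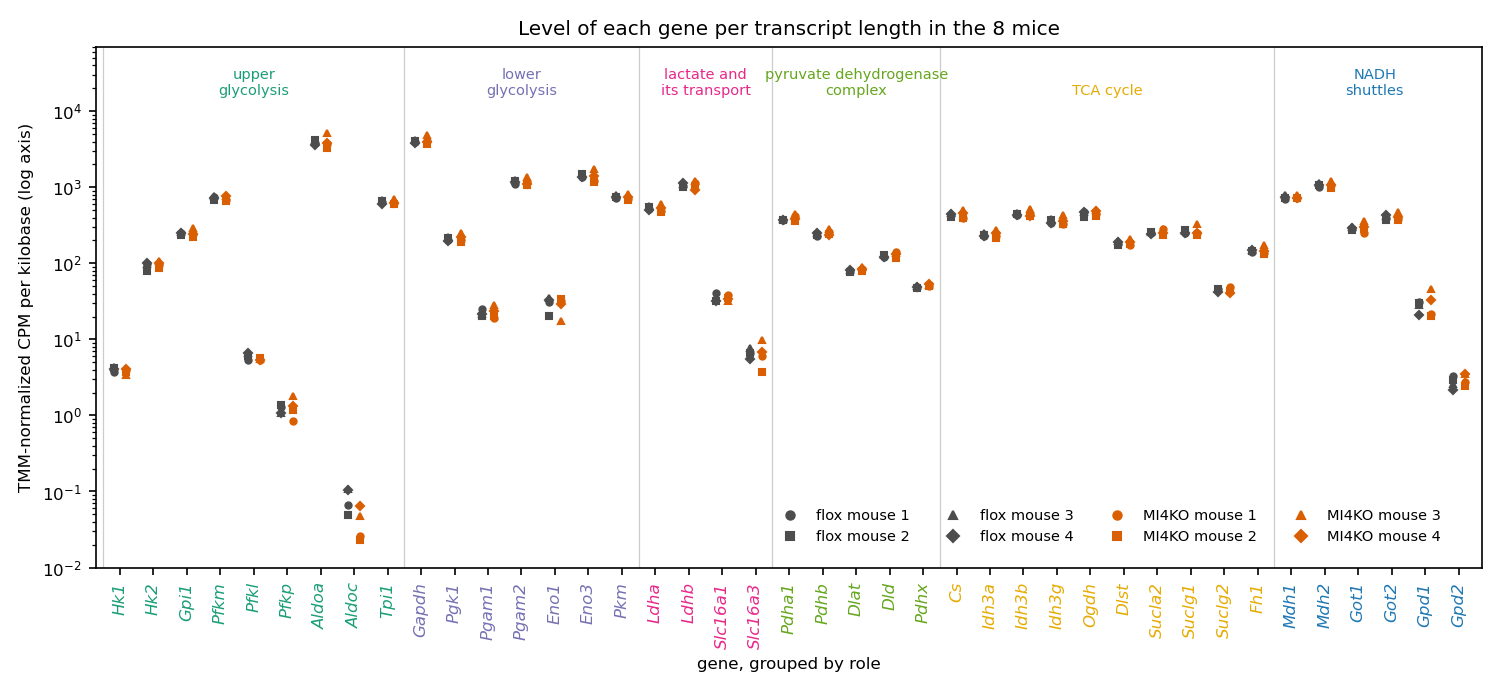
Level of the 41 genes in each of the 8 mice, in TMM-normalized CPM per kilobase of the principal transcript on a log axis, with genes grouped by role and symbols for the mice. Gapdh and Aldoa stand highest at means of 4064 and 3982, Aldoc stands lowest at 0.061, and for most genes the symbols of both groups cover much the same range.

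The groups were compared gene by gene with limma, a linear model that steadies each gene's variance with that of the others, on log2(value + 1) in a single fit over 11865 genes, those that reached a value of 1 in 4 or more mice. The added 1 makes the fold changes of low genes too small, and in whole muscle fewer cells of a type and less RNA per cell cannot be told apart. Of the 41 members, 40 passed this filter, and Aldoc, at 0.065 to 0.300 in the 8 mice from 1 to 4 reads, did not. By limma, none of the 40 members passed the limits of the study, an unadjusted p under 0.05 with a fold of at least 1.5. Of all genes tested 0.219% did, and 0 genes of the whole table had an adjusted p under 0.05. The study itself used edgeR. It reported more SOL genes at these limits than limma, or edgeR on recovered reads, called here, and the cause was not tested. At an unadjusted p under 0.05 and any fold, 0 of 40 members were called by limma, beside 3.36% of all genes. On the recovered reads, DESeq2 and both the exact and the quasi-likelihood test of edgeR also put 0 members past the limits. These tests put 0 members at an unadjusted p under 0.05. Of the 11865 genes, DESeq2 put 248, edgeR's exact test 307 and its quasi-likelihood test 363 at an unadjusted p under 0.05. The estimates were narrow, since the 95% interval of the fold lay inside 1.5-fold in both directions for 40 of 40 members and for 90.7% of all genes tested. Fold changes of the members ran from -0.15 for Pfkl to 0.14 for Gpd2 on the log2 scale, with a median of 0.01 beside -0.01 for all genes tested. The log2 fold change was above 0 for 25 of 40 members and for 43.8% of all genes, and leaving out MI4KO mouse 3 brought these to 10 of 40 and 33.4%. The split also moved with the scaling, to 30 of 40 members and 51.7% of all genes with median-of-ratios factors and to 35 of 40 and 59.9% with library size. With the mouse-number range as a covariate it was 30 of 40 and 47.3%, and the median of the members was 0.05. Values of the groups did not overlap for 1 of 40 members, Pdhx, and for 2.07% of all genes.

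**Figure D2:**
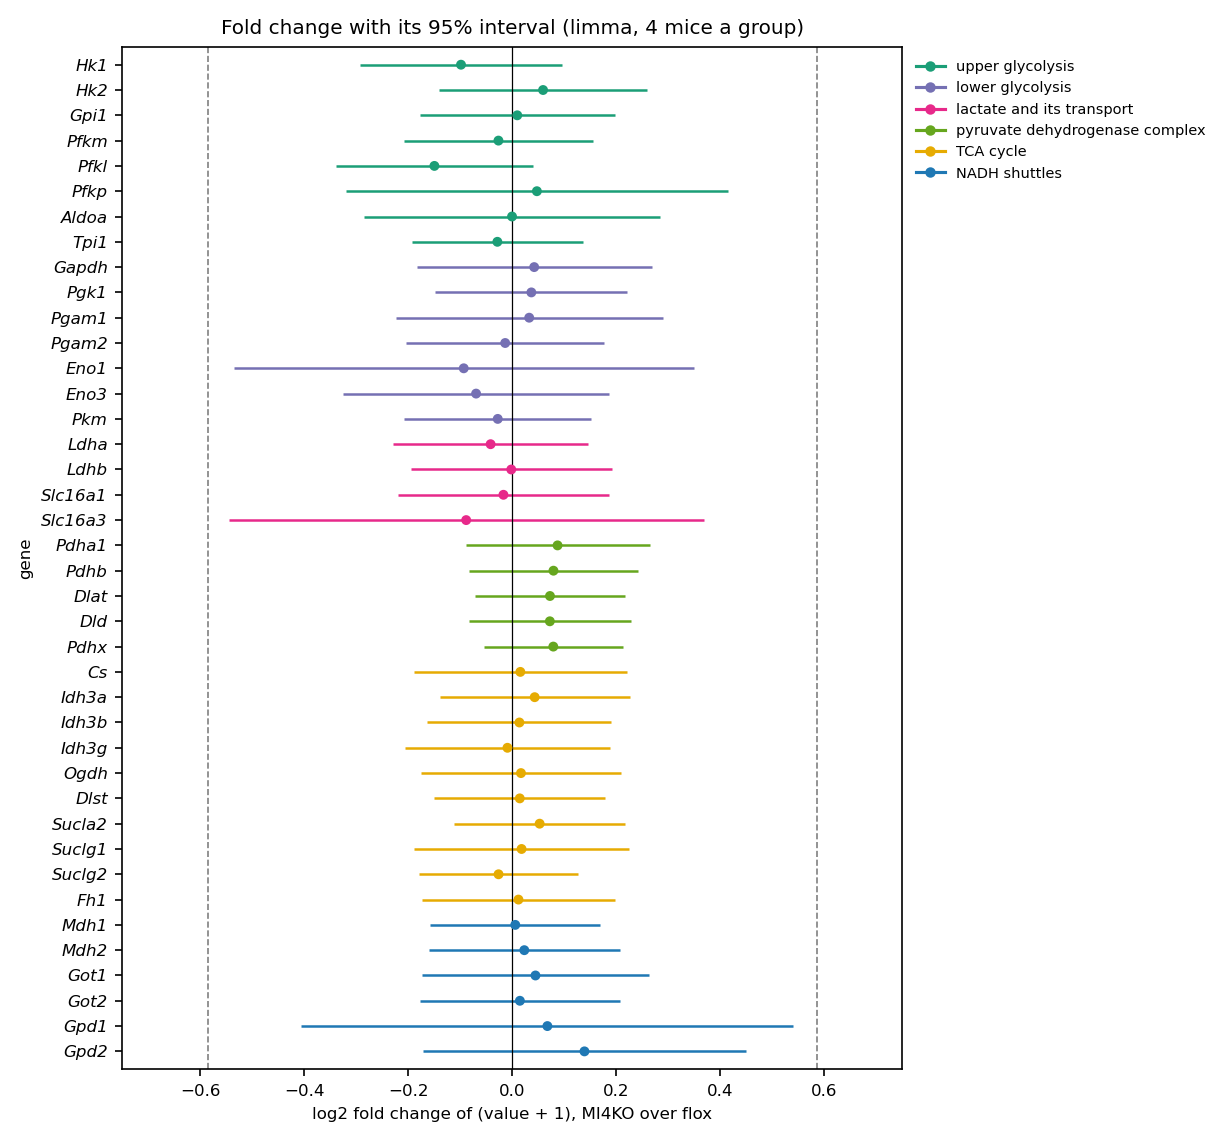
Log2 fold change of (value + 1), MI4KO over flox, for the 40 genes tested, with 95% intervals from limma and dashed lines at a 1.5-fold difference either way. Every interval crosses 0 and lies inside the dashed lines, and the 5 genes of the pyruvate dehydrogenase complex sit between 0.07 and 0.09.

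In upper glycolysis, the liver-type phosphofructokinase Pfkl had the smallest unadjusted p of all members. Pfkl (chromosome 10 of GRCm38, 77986947 to 78010083, minus strand) was at 19.8, 22.3, 24.4 and 24.7 in flox mice 1 to 4 and at 19.9, 21.0, 20.3 and 20.2 in MI4KO mice. All 4 MI4KO mice lay below 3 of the flox mice, and flox mouse 1 lay below all of them. The log2 fold change of Pfkl was -0.15 (SE 0.09, unadjusted p = 0.111 and adjusted p = 1.0 by limma), a fold of 0.901 with a 95% interval of 0.790 to 1.03. Flox mouse 1 is the mouse with the liver markers, and without it the log2 fold change of Pfkl was -0.21 (unadjusted p = 0.030 and adjusted p = 1.0 by limma). Pfkl made up little of the phosphofructokinase RNA. Pfkm, the muscle isoform, was at 1984 to 2201 in flox mice and at 1889 to 2202 in MI4KO mice, and Pfkp was at 4.50 to 5.69 and at 3.48 to 7.38.

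Hk2, the insulin-responsive hexokinase of muscle, was at 533.4, 442.5, 541.6 and 548.9 in flox mice and at 531.1, 474.3, 597.7 and 549.0 in MI4KO mice. The lowest value was that of flox mouse 2 and the highest that of MI4KO mouse 3. Its fold was 1.04, with an interval of 0.907 to 1.197. Hk1, the hexokinase of most tissues, was at 14.2 to 16.7 in flox mice and at 13.3 to 15.5 in MI4KO mice, with a log2 fold change of -0.10 (SE 0.09, unadjusted p = 0.289 and adjusted p = 1.0 by limma). Unlike Hk2, Hk1 was lowest in MI4KO mouse 3.

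Aldoa was at 5830, 6296, 6277 and 5519 in flox mice and at 5597, 4979, 7785 and 5847 in MI4KO mice. Both extremes of Aldoa were MI4KO mice, with mouse 2 lowest and mouse 3 highest, and the group means were 5980 and 6052. On the log2 scale, where the high value of MI4KO mouse 3 weighs less, the fold from limma was 0.999 with an interval of 0.820 to 1.22. Glucose phosphate isomerase Gpi1 (648.8 to 847.8 over all mice) and triose phosphate isomerase Tpi1 (970.2 to 1114) had folds of 1.01 and 0.9801. Over the role as a whole, 3 of the 8 genes tested had a log2 fold change above 0, beside 6 of 8 with library-size scaling and 1 of 8 without MI4KO mouse 3. For all genes tested these shares were 43.8%, 59.9% and 33.4%.

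In lower glycolysis, 3 of 7 genes had a log2 fold change above 0, beside 5 of 7 with library-size scaling and 1 of 7 without MI4KO mouse 3. The same shares of all genes tested were 43.8%, 59.9% and 33.4%. Folds of this role ran from 0.937 for Eno1 to 1.03 for Gapdh. Gapdh was at 5549, 5790, 5937 and 5426 in flox mice and at 5763, 5286, 6874 and 5548 in MI4KO mice, so the MI4KO mice again held both extremes. Phosphoglycerate kinase Pgk1 ranged from 353.6 to 455.8 over the 8 mice, Pgam1, the mutase of most tissues, from 34.2 to 50.9, Pgam2 from 895.3 to 1148 and Pkm from 1676 to 2008. For these 4 genes the highest value was that of MI4KO mouse 3. Eno3 was at 2131, 2373, 2314 and 2143 in flox mice and at 1891, 1820, 2703 and 2221 in MI4KO mice, a fold of 0.953 with an interval of 0.797 to 1.14.

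Eno1, the enolase of most tissues, had the largest coefficient of variation of the 40 members among flox mice, 22.5%. Its values were 62.7, 40.6, 70.8 and 67.1 in flox mice and 64.6, 68.6, 35.3 and 59.3 in MI4KO mice, so 1 mouse of each group stood far below the others. The table also lists Eno1b, a copy of Eno1 whose reads a transcript aligner may share with it, and which was singled out after its values were seen. Eno1b was at 26.9, 46.3, 36.2 and 36.4 in flox mice and at 20.5, 25.4, 52.1 and 32.8 in MI4KO mice, highest in the same mice in which Eno1 was lowest. The sum of both genes ran from 85.2 to 107.1, a ratio of 1.26 between the highest and lowest mouse, against 2.01 for Eno1 and 2.54 for Eno1b alone. Eno1 held between 40.4% of the sum in MI4KO mouse 3 and 75.9% in MI4KO mouse 1. Values of Eno1 alone are thus uncertain here, and whether reads were divided between the copies differently in each mouse was not tested. The sum was 96.8 ± 10.02 (SD, n = 4) in the flox group and 89.6 ± 4.08 (SD, n = 4) in the MI4KO group, and by an exact permutation test (two-sided) p = 0.314. Of the other processed copies of glycolytic genes in the table, Aldoart1 was at 3.17 to 6.52, which is little beside Aldoa.

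**Figure D3:**
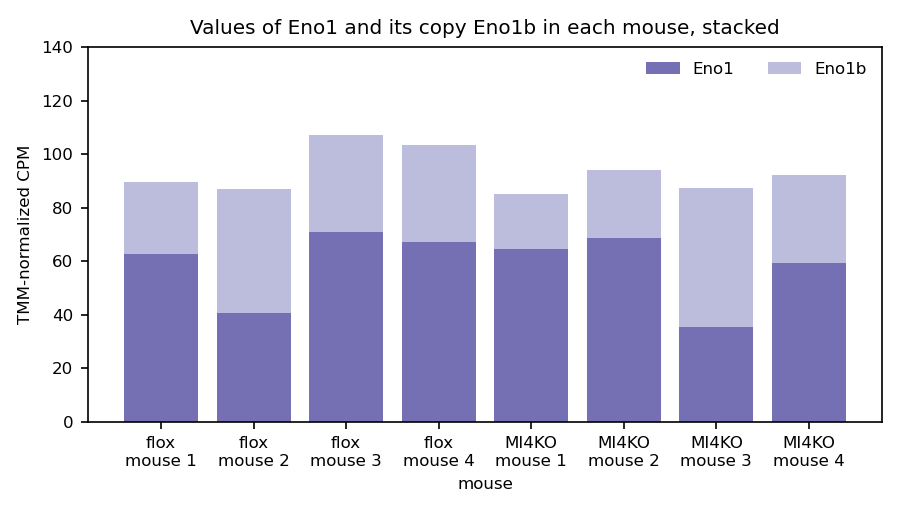
Stacked TMM-normalized CPM of Eno1 and Eno1b in each of the 8 mice. Flox mouse 2 and MI4KO mouse 3 have the lowest Eno1 (40.6 and 35.3) and the highest Eno1b (46.3 and 52.1), while the stacked height stays between 85.2 and 107.1.

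All 4 genes of lactate and its transport had log2 fold changes below 0, and none of these was past a limit. Over all genes tested 43.8% lay above 0. Ldha, the subunit that favors lactate formation, was at 923.5, 975.6, 996.9 and 897.6 in flox mice and at 858.9, 838.4, 1062 and 938.4 in MI4KO mice, a fold of 0.971 with an interval of 0.853 to 1.11. Ldhb, the heart-type subunit that favors lactate use, was at 1356, 1316, 1454 and 1467 in flox mice and at 1465, 1362, 1556 and 1218 in MI4KO mice, a fold of 0.998. Ldhb exceeded Ldha in every mouse, and its share of both per kilobase was 66.6% ± 1.75 (SD, n = 4) in the flox group and 67.2% ± 2.68 (SD, n = 4) in MI4KO mice. Among the monocarboxylate transporters, Slc16a1 (MCT1), the transporter of oxidative fibers, ranged from 139.5 to 181.6 and was lowest in MI4KO mouse 3. Slc16a3 (MCT4), the lactate exporter of glycolytic cells, was at 29.1, 28.9, 33.4 and 24.0 in flox mice and at 25.8, 16.4, 42.1 and 29.2 in MI4KO mice. The MI4KO values spread 2.58-fold and enclosed all flox values, and the fold was 0.940 with an interval of 0.685 to 1.29. The signs of this role depended on the scaling. With library-size scaling 3 of 4 genes lay above 0, beside 59.9% of all genes. With median-of-ratios factors it was 2 of 4, beside 51.7%.

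All 5 genes of the pyruvate dehydrogenase complex were slightly higher in MI4KO mice, by 0.07 to 0.09 on the log2 scale, and no single gene passed a limit. Of all genes tested, 43.8% had a log2 fold change above 0. Pdhx, the protein that anchors the dihydrolipoyl dehydrogenase subunit to the core (chromosome 2, 103021075 to 103073513, minus strand), was at 120.8, 119.9, 125.6 and 123.4 in flox mice and at 125.6, 126.2, 131.2 and 134.5 in MI4KO mice. The lowest MI4KO value, 125.64, was above the highest flox value, 125.60, by a margin far below the spread within either group. Its log2 fold change was 0.08 (SE 0.06, unadjusted p = 0.226 and adjusted p = 1.0 by limma), a fold of 1.06 with an interval of 0.963 to 1.16.

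Pdha1, the catalytic alpha subunit, was at 1074, 1061, 1104 and 1067 in flox mice and at 1177, 1022, 1283.6 and 1107 in MI4KO mice. Here 3 MI4KO mice lay above every flox mouse and MI4KO mouse 2 lay below all of them. Pdha1 had a fold of 1.06 (log2 0.09, SE 0.08, unadjusted p = 0.308 and adjusted p = 1.0 by limma). Its coefficient of variation among flox mice, 1.80%, was the smallest of the 40 members. Pdhb, the beta subunit, ran from 342.5 to 376.1 in flox mice and from 353.6 to 424.9 in MI4KO mice (log2 0.08, SE 0.07, unadjusted p = 0.311 and adjusted p = 1.0 by limma). Dlat, the acetyltransferase core, ran from 307.1 to 331.1 and from 318.2 to 360.1 (log2 0.07, SE 0.07, unadjusted p = 0.298 and adjusted p = 1.0 by limma). Dld, the dihydrolipoyl dehydrogenase that the complex shares with other 2-oxo acid dehydrogenases, ran from 307.9 to 331.3 and from 301.5 to 355.1.

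Without MI4KO mouse 3 the 5 log2 fold changes were still above 0, at a median of 0.04, and without both this mouse and flox mouse 1 the lowest of them was 0.002. With the mouse-number range as a covariate their median was 0.09. Scaling by library size moved their median to 0.12 while it moved the median of all genes from -0.01 to 0.03. Of the alternatives tried, library-size scaling alone put 2 of them, Dlat and Pdha1, at an unadjusted p under 0.05. With that scaling, 395 of the 11865 genes tested had an unadjusted p under 0.05 by limma. The proportions between subunits had similar means in both groups. Their SD was larger in MI4KO mice for every pair but Dlat to Dld (0.034 in flox and 0.025 in MI4KO mice). The difference in spread was not tested. Per kilobase, Pdha1 exceeded Pdhb by a ratio of 1.57 ± 0.067 (SD, n = 4) in the flox group and 1.58 ± 0.082 (SD, n = 4) in MI4KO mice, and Dlat exceeded Pdhx by 1.63 ± 0.031 and 1.63 ± 0.080. Pdha1 exceeded Pdhx by 7.74 ± 0.095 in flox mice and by 7.81 ± 0.735 in MI4KO mice, with single mice between 7.12 and 8.61, and the ratio of Pdhb to Pdhx ran from 4.36 to 5.37. Endothelial markers were lower in the MI4KO group (0 of 6 with a log2 fold change above 0, and Cdh5 and Kdr at unadjusted p = 0.028 and 0.024 and adjusted p = 1.0 by limma), with sums of 350.3 to 422.2 in flox mice and 267.6 to 371.2 in MI4KO mice. Of the slow fiber markers 0 of 8, and of the fibroblast markers 0 of 5, lay above 0, beside 43.8% of all genes tested. Above 0 also lay 1 of 6 adipocyte, 1 of 5 erythroid, 1 of 5 Schwann cell, 5 of 6 macrophage and 6 of 11 fast fiber markers. The part of these markers in the values of the complex was not tested.

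In the TCA cycle, 8 of 10 genes had log2 fold changes above 0, beside 10 of 10 with library-size scaling and 1 of 10 without MI4KO mouse 3. The shares of all genes tested were 43.8%, 59.9% and 33.4%. All folds of the role lay between 0.982 for Suclg2 and 1.04 for Sucla2. Citrate synthase Cs, a common measure of mitochondrial content, was at 1256, 1200, 1331 and 1295 in flox mice and at 1159, 1154, 1494 and 1357 in MI4KO mice, a fold of 1.01 with an interval of 0.877 to 1.16. MI4KO mice 1 and 2, of the lower number range, lay below every flox value, and MI4KO mice 3 and 4, of the higher range, lay above. With the range as a covariate the log2 fold change of Cs was 0.06 (unadjusted p = 0.511 and adjusted p = 1.0 by limma). The subunits of NAD-dependent isocitrate dehydrogenase, the catalytic Idh3a and the regulatory Idh3b and Idh3g, ranged from 513.6 to 660.4, from 676.5 to 839.1 and from 433.7 to 567.7 over the 8 mice. Per kilobase, Idh3a stood to Idh3b at 0.526 ± 0.004 (SD, n = 4) in the flox group and at 0.538 ± 0.040 (SD, n = 4) in MI4KO mice, so this proportion spread more among MI4KO mice.

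Ogdh, the first subunit of the oxoglutarate dehydrogenase complex, was at 1943, 1687, 1982 and 1953 in flox mice and at 1814, 1755, 2072 and 2013 in MI4KO mice. The low value of flox mouse 2 stood apart from the other flox mice. Dlst, the succinyltransferase core of the same complex, ranged from 485.8 to 573.2 over all mice, and the ratio of Ogdh to Dlst per kilobase was 2.46 in both groups (SD 0.114 in flox and 0.059 in MI4KO mice). Of the succinyl-CoA ligase genes, the shared alpha subunit Suclg1 ranged from 360.7 to 493.8. The ATP-forming beta subunit Sucla2 was at 564.4, 574.0, 581.8 and 537.5 in flox mice and at 627.5, 529.1, 625.4 and 564.0 in MI4KO mice. The GTP-forming beta subunit Suclg2, with the IRF-type repeat upstream, was at 154.0, 152.7, 155.5 and 143.1 in flox mice and at 162.9, 144.0, 149.9 and 138.0 in MI4KO mice. The groups of Suclg2 overlapped fully, with a fold of 0.982 and an interval of 0.883 to 1.09. Fumarase Fh1 ranged from 355.2 to 461.6, with its highest value in MI4KO mouse 3.

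All 6 genes of the NADH shuttles had log2 fold changes above 0, from 0.01 for Mdh1 to 0.14 for Gpd2, and without MI4KO mouse 3 this was 1 of 6. Over all genes tested the share above 0 was 43.8%, and 33.4% without this mouse. Mdh1 was at 1488, 1523, 1660 and 1586 in flox mice and at 1530, 1539, 1676 and 1535 in MI4KO mice. Mdh2 ranged from 1430 to 1770, cytosolic aspartate aminotransferase Got1 from 519.2 to 748.8 and its mitochondrial partner Got2 from 944.6 to 1188, all with their maximum in MI4KO mouse 3. Gpd1, the cytosolic glycerol phosphate dehydrogenase, was at 89.7, 85.9, 80.2 and 59.8 in flox mice and at 61.9, 58.1, 131.5 and 94.1 in MI4KO mice. MI4KO mice 1 and 2, of the lower number range, lay near the lowest flox mouse, which is of the higher range, and MI4KO mouse 3 lay far above all others. With the range as a covariate the log2 fold change of Gpd1 was 0.16 (unadjusted p = 0.429 and adjusted p = 1.0 by limma). Without it, the fold of 1.05 had an interval of 0.755 to 1.45, with the widest standard error of the 40 members (0.22 on the log2 scale). Gpd2 was at 12.5 to 19.1 in flox mice and at 13.9 to 20.3 in MI4KO mice, a fold of 1.10 with an interval of 0.888 to 1.36.

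Ratios of paired genes within a mouse do not depend on how libraries are scaled. Of 11 such pairs, compared by exact two-sided permutation tests whose smallest possible p is 0.0286, 0 had a p under 0.05, and the smallest adjusted p was 0.629. The log2 ratio of Hk2 to Hk1 was 5.03 ± 0.200 (SD, n = 4) in the flox group and 5.20 ± 0.200 in the MI4KO group, and the difference of 0.16 gave an exact p of 0.314. The log2 ratio of Pfkm to Pfkl was 6.53 ± 0.168 and 6.66 ± 0.129, an exact p of 0.343. Aldoa over Aldoc had the smallest exact p, 0.057, but it rests on 1 to 4 reads of Aldoc a mouse. Sucla2 over Suclg2 was the most even pair in flox mice, at 1.90 ± 0.017, and reached 1.98 ± 0.083 in MI4KO mice, with MI4KO mouse 3 highest at 2.06, and the exact p was 0.114. With labels permuted only within the ranges of mouse numbers, the exact p of this pair was 0.033, not adjusted for the 11 pairs. The 30 possible arrangements can give no smaller p.

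The remaining pairs differed by less than the spread within the groups. Ldhb over Ldha was at 0.55, 0.43, 0.54 and 0.71 in flox mice and at 0.77, 0.70, 0.55 and 0.38 in MI4KO mice, and the MI4KO mice enclosed the flox range. Slc16a1 over Slc16a3 ran from 1.73 in MI4KO mouse 3 to 3.26 in MI4KO mouse 2, while flox mice lay between 2.27 and 2.64. Pgam2 over Pgam1, Eno3 over Eno1, Gpd1 over Gpd2, Mdh2 over Mdh1 and Got2 over Got1 had exact p-values between 0.571 and 0.943. With Eno1b added to Eno1, the log2 ratio of Eno3 to the sum was 4.54 ± 0.178 (SD, n = 4) in the flox group and 4.57 ± 0.284 (SD, n = 4) in MI4KO mice, and an exact permutation test gave p = 0.8286.

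**Figure D4:**
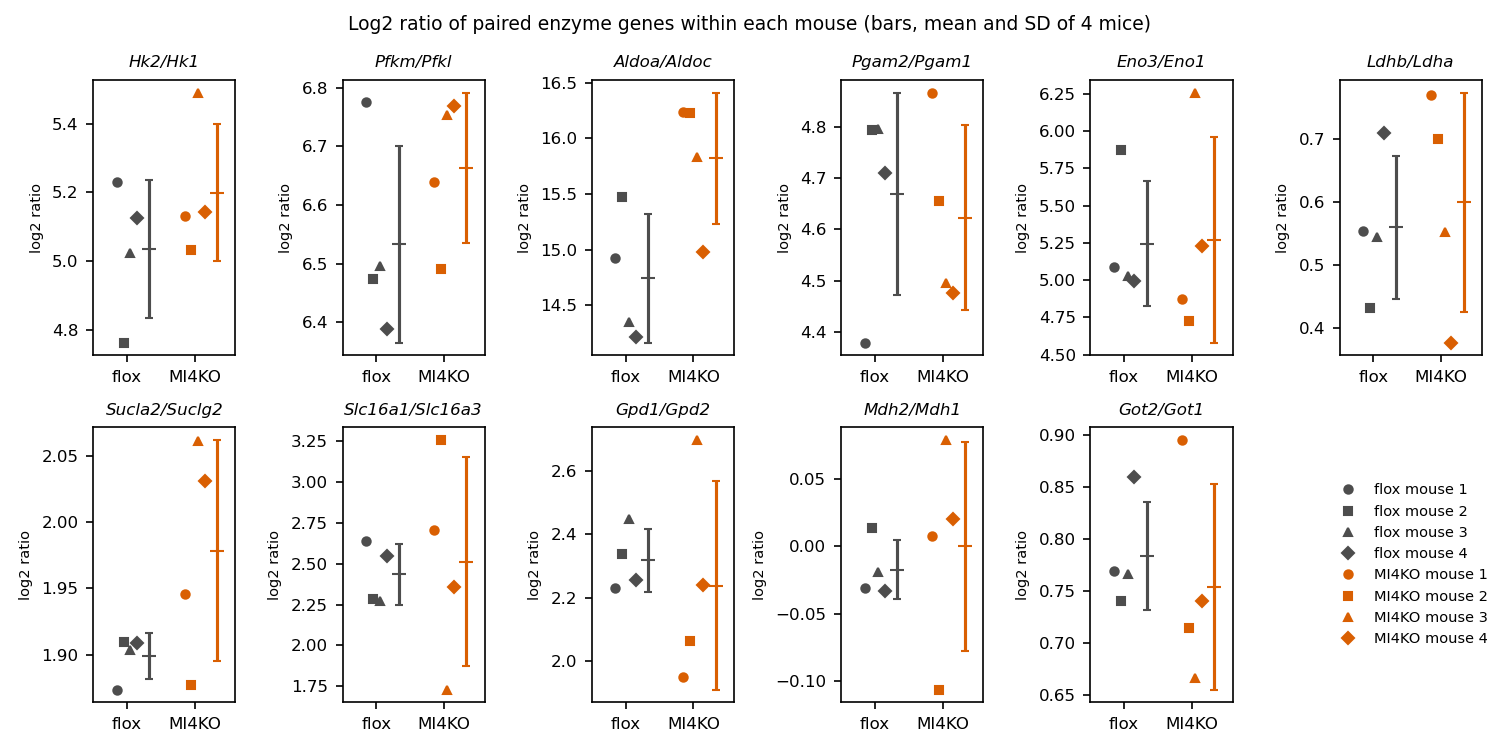
Log2 ratio of 11 pairs of enzyme genes within each mouse, 1 panel a pair with its own axis, symbols for the mice and bars for the mean and SD of 4 mice. The groups overlap in every panel, and MI4KO mouse 3 is the highest mouse for Hk2/Hk1, Eno3/Eno1, Sucla2/Suclg2, Gpd1/Gpd2 and Mdh2/Mdh1 and the lowest for Slc16a1/Slc16a3 and Got2/Got1.

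Single mice moved many members at once. MI4KO mouse 3 had the highest value for 31 of 40 members, and 30.9% of all genes tested were highest in it. The lowest value was that of MI4KO mouse 2 for 21 of 40 members, beside 16.7% of all genes. The deposited columns of these mice have the largest and the smallest sum, 1089208 and 917785. Scaled by library size instead, MI4KO mouse 3 was highest for 17 of 40 members (13.2% of all genes) and MI4KO mouse 2 lowest for 1 of 40 (4.07% of all genes). With median-of-ratios factors the counts were 25 of 40 (21.4% of all genes) and 7 of 40 (8.49% of all genes). How much of the mice's order lies in the scaling was not tested further, nor was the part of the high glucocorticoid-responsive genes of MI4KO mouse 3, among them Fkbp5 at 158.6 there and 19.4 to 31.2 elsewhere. The members were even within the flox group, with a median coefficient of variation of 4.84% against 9.32% for all genes tested. Among those whose mean value was 100 or more, it was 4.54% for 32 members and 5.65% for 1390 genes. After Eno1, the highest coefficients were those of Gpd2 (18.02%) and Gpd1 (16.9%).

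**Figure D5:**
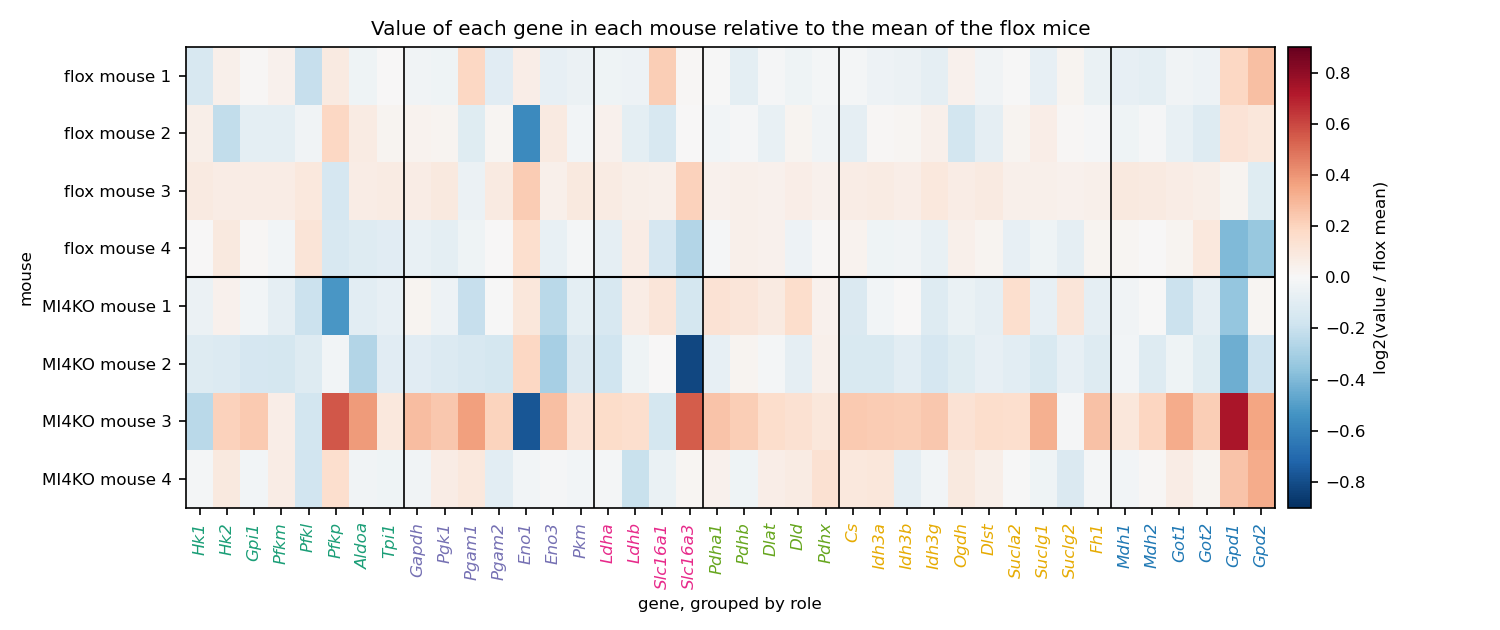
Log2 of each value over the mean of the flox mice for the 40 genes tested (columns, by role) in the 8 mice (rows), with red above and blue below the flox mean. The row of MI4KO mouse 3 is red for most genes and holds the maximum of 31 of them, with Hk1, Pfkl, Eno1, Slc16a1 and Suclg2 in blue, and the row of MI4KO mouse 2 is mostly blue.

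Other genes of these pathways were counted in the same way. Of 59 listed transporters, regulators and isoforms, 58 have a row and 43 were tested, and none passed the limits of the study or an unadjusted p of 0.05. The log2 fold change was above 0 for 25 of the 43, beside 43.8% of all genes tested. Genes with high values among them were the NADP-dependent isocitrate dehydrogenase Idh2 (2075 to 2628) and pyruvate dehydrogenase kinase Pdk4 (1562 to 2470), which phosphorylates and restrains the complex. Pdk4 is among the glucocorticoid-responsive genes and was highest in MI4KO mouse 3. The groups did not overlap for 1 of the 43, beside 2.07% of all genes tested. This gene was Pdp1, a phosphatase that reactivates the pyruvate dehydrogenase complex. Pdp1 was at 62.3, 56.0, 56.2 and 57.6 in flox mice and at 55.6, 53.4, 41.7 and 54.2 in MI4KO mice, and the lowest value was that of MI4KO mouse 3. Its log2 fold change was -0.18 (SE 0.09, unadjusted p = 0.072 and adjusted p = 1.0 by limma). Fbp1, the liver fructose bisphosphatase, was at 0.998 in flox mouse 1 and at no more than 0.069 in the others, and flox mouse 1 is also the mouse with the liver markers.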

How the data were processed

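SOL libraries of 4 flox and 4 MI4KO mice were analysed. The authors prepared stranded poly(A) libraries (Kapa Stranded mRNA), sequenced 50 bases from 1 end, aligned the reads to transcripts from UCSC (Bowtie2 2.1.0), estimated expression with RSEM 1.2.15 and scaled it by TMM, with mm10 named in the submitters' processing notes. The deposited signal is 1 TMM-normalized CPM value per gene and mouse. The authors' own fold-change score, p-value and FDR columns, from edgeR, were not used. Which transcripts share reads between copies was set by RSEM and was not re-examined.

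Dividing by each mouse's step gave whole reads for 100% of non-zero values (within 0.02 reads), 13417512 to 16384565 a mouse, where 3 reads equal 0.181 to 0.225. These totals cover counting error only. The files held normalized values, so limma 3.58.1 (R 4.3.3) with a mean-variance trend was the main test, on log2(value + 1), with Benjamini-Hochberg adjustment over 11865 genes. edgeR 4.0.16 and DESeq2 1.42.0 on the recovered reads, another pseudocount, no filter, no trend, other scalings, mouse-number range as covariate and left-out mice were alternatives. Separate mice are taken as the replicates. Chi-square per degree of freedom between any 2 mice was 6.06 to 52.4, so none was a repeat of the same library. On simulated counts for MI4KO against flox, limma called 91 of 100 genes changed by 2-fold, 99 of 99 tested genes changed by 4-fold, and 11 of 11659 unchanged genes at an adjusted p under 0.05. Changes smaller than 2-fold were not simulated, so this does not tell how often differences as small as those of the members would be called. Ratios of 11 pairs were compared by exact permutation tests (scipy 1.17.1).

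All members were named, and full statistics were given to the 6 with the smallest p in limma and to those whose groups did not overlap. Of the other pathway genes, those past a limit and the 3 highest were to be named, of which not all are reported here, and Pdp1, Fbp1, Aldoart1 and Eno1b were added after their values were seen. The members, lists and tests were chosen with earlier results of these data known. Gene positions and lengths are from GENCODE M21 (GRCm38), and upstream sequences from RefSeq (GRCm38.p6).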

Additional observations from a re-analysis of the deposited data

Results flagged for a closer look

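In 5 of 104 groups of 4 mice, 1 mouse stood apart from the other 3 by more than Dixon's 95% critical value for the gap over the range, and chance gives about 1 in 20. Flox mouse 2 was low for Hk2, at 442.5 against 533.4 to 548.9 in the other flox mice, and for Ogdh, at 1687 against 1943 to 1982. It was also high for the log2 ratio of Eno3 to Eno1, at 5.87 against 4.997 to 5.09, where its Eno1 was low and its Eno1b high. MI4KO mouse 3 was high for Mdh1, at 1676 against 1530 to 1539 in the other MI4KO mice. Flox mouse 1 was low for the log2 ratio of Sucla2 to Suclg2, at 1.87 against 1.90 to 1.91.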

How the results depend on the processing

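The count of members past the limits of the study was 0 in all 18 alternatives, and the lowest adjusted p of a member in any of them was 0.895. The count at an unadjusted p under 0.05 was 1 without the filter (Aldoc), beside 634 of the 17968 genes then fitted. It was 2 with library-size scaling (Dlat and Pdha1), beside 395 of 11865 genes. With 1 mouse left out it was between 0 and 1 (Pfkl without flox mouse 1, beside 440 of 11865 genes). Without both flox mouse 1 and MI4KO mouse 3 it was 1 (Pfkl), beside 637 of 11865 genes. The last 2 settings had fewer mice. The count over all genes past the limits of the study, 26, was 41 with a pseudocount of 0.5 and 51 with DESeq2. It was 65 with edgeR's quasi-likelihood test and 78 with edgeR's exact test. With 1 mouse left out it was between 19 and 58 (58 without MI4KO mouse 4), and without both mice it was 41. The cause was not tested. Other pathway genes past the limits numbered between 0 and 2 with 1 mouse left out (1 without MI4KO mouse 2 and 2 without MI4KO mouse 4). With labels permuted within the ranges of mouse numbers, 1 of 11 ratios, Sucla2 over Suclg2, had an unadjusted exact p under 0.05 (p = 0.033). The sign of the log2 fold change changed in at least 1 alternative for 31 of 40 members, 10 of them with a scaling, and for 6 of 11 ratios. Scaling by library size moved the median of all genes by 0.041 on the log2 scale. No paired analysis was possible because the mice of the groups share no numbers. With 4 mice a group, intervals allow differences of about 1.14-fold for a typical member.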
